A study of Mus musculus with 30 samples.

Results

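Levels of 9 neural progenitor genes, Pax6, Sox1, Nes, Pax3, Hes5, Tubb3, Map2, Zic1 and Sox11, were followed across 10 groups of mouse embryonic stem cells. The genes were taken by name from a table of 55421 genes, and all 9 were found there. The cells came from 5 lines of E14, a male line of 129P2/Ola background grown in serum with leukemia inhibitory factor and inhibitors of MEK and GSK3. For every line there were 3 libraries of untreated cells and 3 of cells treated for 24 h, 30 in all.

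All 5 lines carry Tir1, a plant F-box protein that, with auxin, directs a protein fused to an auxin-inducible degron (AID) to destruction. The TIR1 line has no degron and shows what auxin itself does. In the PDS5AB line both PDS5A and PDS5B are fused to AID, and in the WAPL line WAPL is. PDS5AB-NIPBL and WAPL-NIPBL repeat these fusions in cells whose NIPBL also has an FKBP degron and whose RAD21 is fused to Halo. The TIR1, PDS5AB and WAPL lines were treated with 500 µM auxin, and the lines with the NIPBL fusion with 500 µM auxin and 500 nM dTAG-13, the ligand of the FKBP degron. No group received dTAG-13 alone, so its own effect cannot be told apart from that of depletion. These 4 proteins regulate cohesin, a ring-shaped complex that holds sister chromatids together and extrudes loops of chromatin: NIPBL promotes loading and extrusion, WAPL releases cohesin from DNA, and the PDS5 proteins act in both release and stabilisation. The question put to each line was what 24 h without its tagged cofactors did to these genes. Each genotype is represented by 1 named line, and nothing in the labels says that the 3 libraries of a group came from separate cultures, so p-values measure the spread between these libraries, which may be technical.

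Neural progenitors form in the neural plate and keep dividing in the neural tube before they become neurons. Sox1 is among the earliest genes switched on as ectoderm turns neural. Pax6, Pax3 and Zic1 then mark regions of the neural tube, Hes5 is induced by Notch signalling and holds progenitors undifferentiated, and Sox11, Tubb3 and Map2 rise as neurons form. Embryonic stem cells grown with MEK and GSK3 inhibitors are held in a naive pluripotent state in which most of these genes are low.

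Promoter sequence is shown for 4 of the genes, Pax6, Sox11, Zic1 and Hes5, because the first 3 were called higher in some degron lines and not in others, while Hes5, the Notch target, stayed near the limit of detection. RefSeq promoters on GRCm38.p6 were matched by symbol for 8 of the 9 genes, all but Pax3. Each sequence runs 5′ to 3′ on the gene's strand and ends before the first annotated transcription start of RefSeq and of GENCODE, which leaves 208 bases for Zic1 and 250 for the others. Capitals mark matches to 6 motifs searched on both strands. GTGGGAA is bound by RBPJ, the DNA-binding partner of Notch, CATTGT by SOX proteins and ATGCAAAT, the octamer, by POU factors. The others were the CCAAT and TATAAA boxes and the core of the CTCF motif.
Pax6, chr2:105668646-105668895, plus strand: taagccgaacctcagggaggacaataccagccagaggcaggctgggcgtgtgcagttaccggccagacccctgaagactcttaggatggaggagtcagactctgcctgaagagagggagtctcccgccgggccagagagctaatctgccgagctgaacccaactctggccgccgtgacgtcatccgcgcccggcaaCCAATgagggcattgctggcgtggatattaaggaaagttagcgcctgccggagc
Sox11, chr12:27342719-27342968, minus strand: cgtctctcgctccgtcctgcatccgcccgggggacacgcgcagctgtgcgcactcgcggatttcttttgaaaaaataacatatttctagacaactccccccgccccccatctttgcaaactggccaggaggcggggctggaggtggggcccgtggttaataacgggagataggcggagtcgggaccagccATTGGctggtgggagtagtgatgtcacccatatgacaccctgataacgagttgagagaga
Zic1, chr9:91365811-91366018, minus strand: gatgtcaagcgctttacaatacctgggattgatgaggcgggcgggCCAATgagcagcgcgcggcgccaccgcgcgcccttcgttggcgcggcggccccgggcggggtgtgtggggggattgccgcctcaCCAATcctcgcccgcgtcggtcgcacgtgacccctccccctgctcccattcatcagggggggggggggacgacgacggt
Hes5, chr4:154960673-154960922, plus strand: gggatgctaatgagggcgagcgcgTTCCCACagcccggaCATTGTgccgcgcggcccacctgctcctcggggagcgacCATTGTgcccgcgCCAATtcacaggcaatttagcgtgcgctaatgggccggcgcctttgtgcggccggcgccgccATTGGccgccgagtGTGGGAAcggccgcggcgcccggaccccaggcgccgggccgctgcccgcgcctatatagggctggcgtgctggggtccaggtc
The Hes5 sequence held 2 matches to GTGGGAA, 2 to CATTGT and 2 to CCAAT, and no match overlapped another. The only matches in the other 3 were to CCAAT, 1 in Pax6, 1 in Sox11 and 2 in Zic1. Over the same 250 bases of 32851 RefSeq promoters, GTGGGAA was present in 5.42%, CATTGT in 10.7%, ATGCAAAT in 1.60%, CCAAT in 33.8%, TATAAA in 12.4% and the CTCF core in 0.816%. A match is a run of letters and no evidence of binding.

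Library totals ran from 19632704 to 45539021 fragments. Of 55421 genes, 19868 passed a filter on low counts and were tested with edgeR, and 8 of the 9 neural genes passed. Hes5, with 33 counts over the 30 libraries, did not. In the submitters' library names, untreated TIR1 and both PDS5AB groups (9 libraries) carry non-consecutive numbers from 1 to 21. The other 7 groups (21 libraries) carry the unbroken numbers 25 to 45, with treated TIR1 last, at 43 to 45. The labels do not say what the numbers stand for, and whether the lower and higher numbers mark a batch was not tested. If they do, it cannot be told apart from the auxin effect in TIR1 or from the untreated differences of WAPL and the NIPBL lines from TIR1. The stem cell label was matched by pluripotency genes: the summed level of 10 of them lay between 5604 and 6479 CPM (counts scaled to library size) in every untreated library.

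Compared per length of transcript, the genes spanned more than 3 orders of magnitude. The mean FPKM, fragments scaled to library size and exon length, over the 30 libraries was 46.8 for Tubb3 and 12.4 for Nes, the 2 cytoskeletal genes that were abundant in every library. Sox1 followed at 1.04 FPKM, Sox11 at 0.864 and Map2 at 0.272. The other 4 were traces: Zic1 at 0.0550, Pax6 at 0.0291, Hes5 at 0.0287 and Pax3 at 0.0266 FPKM. Of 40589 genes with at least 1 count, 97.3% had a lower level per length than Tubb3 and 89.5% a lower one than Nes, against 33.2% for Pax3. In bulk RNA, a few cells with much of a transcript and many cells with little of it cannot be told apart.

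**Figure D1:**
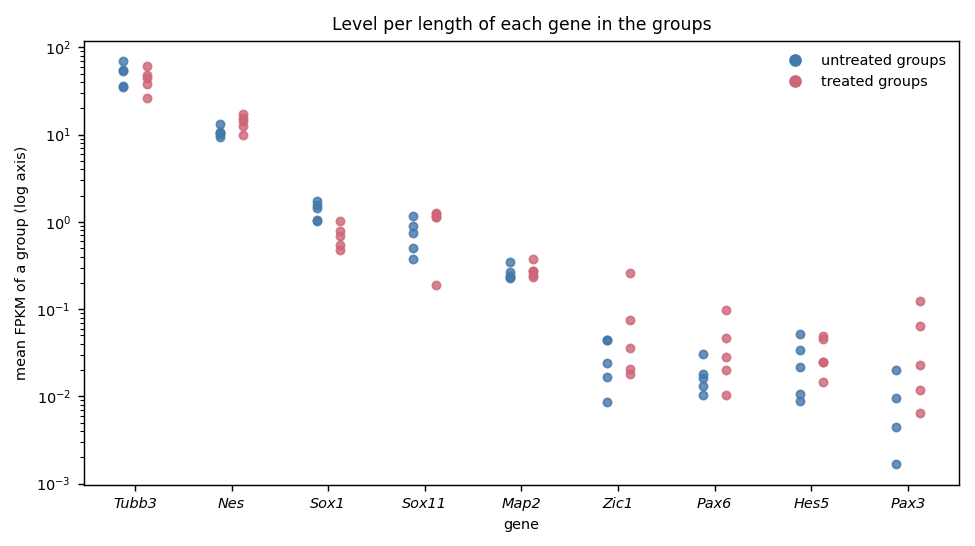
Mean FPKM of each group (log axis) for the 9 genes, ordered by their mean over 30 libraries; each point is 1 group of 3 libraries, blue for untreated and red for treated. Tubb3 and Nes lie highest, and Zic1, Pax6, Hes5 and Pax3 lie near or below 0.1 FPKM in nearly all groups; untreated TIR1 is not drawn for Pax3, since it was at 0.

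Sox1 fell in all 5 lines, and no other of the 9 genes was called in every line. Pax6 rose in the WAPL line, Pax3 in the PDS5AB and PDS5AB-NIPBL lines, and Zic1 in the PDS5AB line. Nes rose in both lines with PDS5A and PDS5B degrons, and Sox11 in both lines with a WAPL degron. A gene was called at an edgeR adjusted p under 0.05, and background shares below are those of all 19868 genes. In TIR1, 3 of the 9 genes were called, all lower, where 19.9% of all genes were called, 10.4% higher and 9.59% lower. In PDS5AB, 6 were called, 4 higher and 2 lower (46% of all genes, 25.8% higher and 20.2% lower). In WAPL, 3 were called, 2 higher and 1 lower (32.8% of all genes, 17% higher and 15.8% lower). In PDS5AB-NIPBL, 3 were called, 2 higher and 1 lower (19.5% of all genes, 11.4% higher and 8.06% lower). In WAPL-NIPBL, 2 were called, 1 in each direction (8.57% of all genes, 5.11% higher and 3.45% lower). The median log2 fold change of the 8 tested genes was -0.25 in TIR1, 0.55 in PDS5AB, 0.41 in WAPL, 0.33 in WAPL-NIPBL and 0.23 in PDS5AB-NIPBL, beside medians of all genes between -0.01 and 0.04. Pax3, at the edge of detection in TIR1, WAPL and WAPL-NIPBL, is included and raises the medians of these lines. The genes did not move as a block, since in every line but TIR1 some were called higher and others lower.

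**Figure D2:**
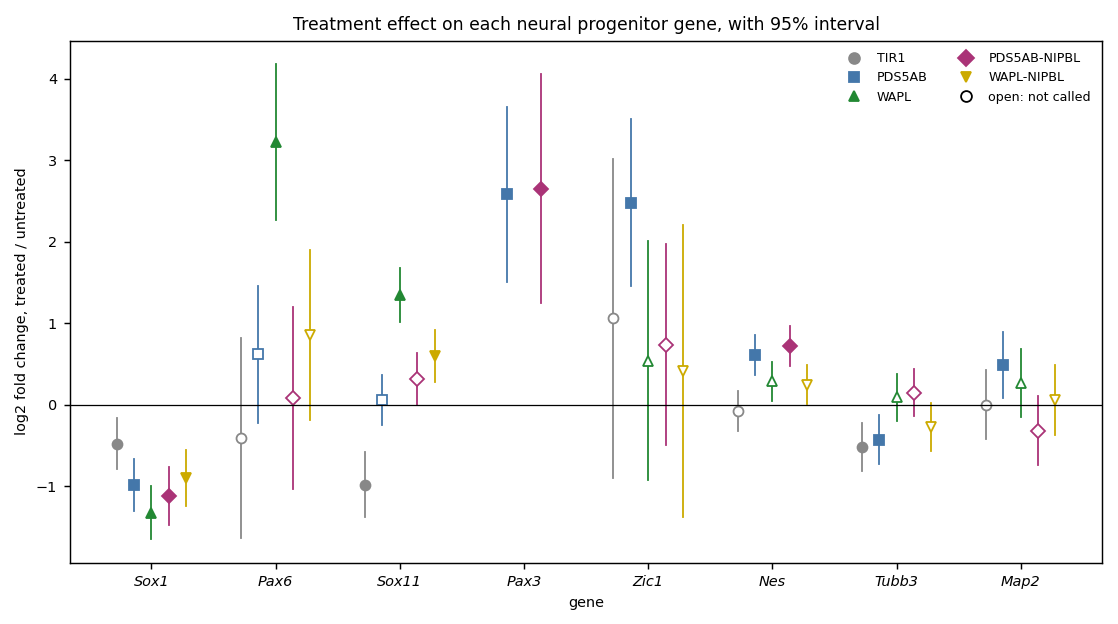
Log2 fold change of treated over untreated libraries, with its 95% interval, for 8 genes in the 5 lines (symbols); filled symbols were called and open ones were not. Sox1 lies below 0 in all 5 lines, and Pax6 at 3.22 in WAPL is the largest value drawn; Pax3 is drawn for PDS5AB and PDS5AB-NIPBL alone, since the untreated libraries of the other lines held 2 counts or fewer in all.

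Sox1 (ENSMUSG00000096014.1, GRCm38 chromosome 8, 12395295 to 12400126, plus strand), a SoxB1 factor of the early neural plate, fell in every line. In the WAPL line it stood at 8.68, 9.03 and 7.64 CPM untreated and at 3.37, 2.90 and 3.84 CPM after auxin. No treated library came near an untreated one, and the log2 fold change was -1.33 (SE 0.154, edgeR adjusted p = 6.62e-08). In the PDS5AB line its values were 8.63, 7.01 and 6.98 CPM untreated and 4.55, 3.63 and 3.30 CPM treated (log2 -0.98, SE 0.153, edgeR adjusted p = 4.62e-06). These groups did not overlap either.

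In the PDS5AB-NIPBL line Sox1 read 6.10, 4.61 and 4.59 CPM untreated and 2.41, 1.92 and 2.61 CPM treated (log2 -1.13, SE 0.171, edgeR adjusted p = 1.35e-05). In the WAPL-NIPBL line it read 4.88, 5.25 and 4.71 CPM untreated and 2.68, 2.63 and 2.61 CPM treated (log2 -0.91, SE 0.165, edgeR adjusted p = 0.000378). The 3 treated WAPL-NIPBL libraries were almost identical, and the groups were fully apart in both lines. With auxin alone it also fell in TIR1, from 8.45, 6.60 and 5.74 to 4.83, 5.36 and 4.71 CPM (log2 -0.48, SE 0.149, edgeR adjusted p = 0.0218). The TIR1 decrease lost its call without untreated replicate 1 (log2 -0.28, edgeR adjusted p = 0.244), without treated replicate 1 (0.0804) or without treated replicate 3 (0.0906).

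The Sox1 decrease exceeded that of TIR1 in the WAPL line, by log2 -0.85 (SE 0.214, edgeR adjusted p = 0.00450). For PDS5AB the excess was -0.50 (edgeR adjusted p = 0.0817, and 0.0223 with a replicate block) and for PDS5AB-NIPBL -0.65 (0.0664, and 0.0174 with the block). For WAPL-NIPBL it was -0.43 (95% interval -0.89 to 0.04, edgeR adjusted p = 0.268). Across the 10 groups Sox1 was highest in untreated WAPL cells (8.45 ± 0.724 CPM, SD, n = 3) and lowest in treated PDS5AB-NIPBL cells (2.32 ± 0.358 CPM). The 5 untreated groups and treated TIR1 formed a run in which each group overlapped the next, and the 4 treated degron groups all lay below it. Of 10 pluripotency genes, 9 fell in PDS5AB (20.2% of all genes were called lower), 9 in WAPL (15.8%) and 8 in each line with the NIPBL fusion (8.06% beside PDS5AB, 3.45% beside WAPL degrons). In TIR1, where Sox1 also fell, 2 fell (9.59%) and 3 rose (10.4%). Their part in the Sox1 decrease was not tested.

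Pax6 (ENSMUSG00000027168.21, chromosome 2, 105668900 to 105697364, plus strand), a paired-box factor of the dorsal forebrain, neural tube and eye, had its largest change in the treated WAPL line. The 3 untreated WAPL libraries held 2, 3 and 5 Pax6 counts, and the 3 treated ones 34, 31 and 39. This was 0.121 ± 0.0689 CPM (SD, n = 3) before and 1.13 ± 0.201 CPM after, a 9.31-fold rise (log2 3.22, SE 0.458, edgeR adjusted p = 2.06e-06). Every treated library was above every untreated one, and treated WAPL was the highest of the 10 groups, apart from all others.

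The rise stayed at a low absolute level, 0.0967 FPKM against 0.0104 FPKM in untreated cells. In the PDS5AB line Pax6 counts were 9, 13 and 12 untreated and 15, 17 and 16 treated (log2 0.62, 95% interval -0.23 to 1.46, edgeR adjusted p = 0.218). In WAPL-NIPBL they were 7, 1 and 6 against 8, 11 and 11 (log2 0.86, edgeR adjusted p = 0.350). In PDS5AB-NIPBL they were 5, 3 and 10 against 8, 4 and 4, and in TIR1 5, 4 and 3 against 7, 3 and 3. None of these 4 effects was called, although the PDS5AB groups did not overlap in CPM.

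The WAPL effect on Pax6 was larger than the TIR1 effect by log2 3.63 (SE 0.785, edgeR adjusted p = 0.00104) and larger than the PDS5AB effect by log2 2.60, written as PDS5AB minus WAPL -2.60 (SE 0.632, edgeR adjusted p = 0.00534). Without treated TIR1 replicate 1, the difference from TIR1 was log2 4.25 (edgeR adjusted p = 0.000409). Against the WAPL-NIPBL effect the difference, WAPL-NIPBL minus WAPL, was -2.36 (SE 0.723) with an edgeR adjusted p of 0.0515. With the replicate block it passed (log2 -2.31, edgeR adjusted p = 0.0413). It also passed without untreated WAPL-NIPBL replicate 2 (0.0109) and without untreated WAPL replicate 3 (0.0371).

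Sox11 (ENSMUSG00000063632.6, chromosome 12, 27334264 to 27342574, minus strand) is a SoxC factor of newborn neurons. In WAPL cells its 3 libraries read 4.23, 3.42 and 4.76 CPM before auxin and 8.70, 12 and 10.7 CPM after. The groups were far apart (2.54-fold, log2 1.35, SE 0.158, edgeR adjusted p = 8.06e-08). In WAPL-NIPBL cells it read 5.78, 6.41 and 6.56 CPM before and 7.83, 9.40 and 11.1 CPM after (log2 0.60, SE 0.154, edgeR adjusted p = 0.0112). Leaving out untreated replicate 1 (log2 0.56, edgeR adjusted p = 0.0583) or treated replicate 3 (log2 0.48, 0.103) ended this call.

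TIR1 moved the other way: Sox11 read 3.78, 3.08 and 2.52 CPM untreated and 1.46, 1.65 and 1.61 CPM after auxin (log2 -0.98, SE 0.190, edgeR adjusted p = 0.000418). It remained called under all 11 alternatives, but the untreated and treated TIR1 libraries carry lower and higher library numbers. In PDS5AB cells Sox11 was already at 10.8, 8.40 and 10.2 CPM untreated and read 10.4, 9.38 and 10.7 CPM after auxin (log2 0.05, 95% interval -0.25 to 0.36, edgeR adjusted p = 0.794). In PDS5AB-NIPBL cells it read 6.67, 6.57 and 9.17 CPM untreated and 8.70, 9.80 and 9.56 CPM treated (log2 0.32, edgeR adjusted p = 0.159, and 0.0492 with the replicate block). Without untreated replicate 3 this effect was log2 0.50 and was called (edgeR adjusted p = 0.0427).

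The Sox11 effect exceeded that of TIR1 in all 4 degron lines: by log2 2.33 in WAPL (SE 0.247, edgeR adjusted p = 4.13e-08), 1.58 in WAPL-NIPBL (0.000100), 1.30 in PDS5AB-NIPBL (0.000660) and 1.04 in PDS5AB (0.00173). Each of these rests on the TIR1 effect, whose untreated and treated libraries are numbered apart. TIR1 received no dTAG-13, so the excess in the NIPBL lines also holds any effect of dTAG-13 itself. The effect in PDS5AB was below that in WAPL by log2 -1.29 (SE 0.216, edgeR adjusted p = 0.000111). The effect in WAPL-NIPBL was below that in WAPL by log2 -0.75 (SE 0.221, edgeR adjusted p = 0.0422). The last call was the least firm, since it was lost with the compared groups alone (0.0777) and in 9 of 12 fits that left out 1 library, with edgeR adjusted p up to 0.135. The 4 treated degron groups ended near one another, at 9.35 to 10.5 CPM on average, from untreated means of 4.14 to 9.81 CPM.

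Pax3 (ENSMUSG00000004872.15, chromosome 1, 78101267 to 78197134, minus strand) marks the dorsal neural tube and the neural crest. In the PDS5AB line it had 4 counts in each untreated library and 28, 20 and 19 after auxin (0.126 ± 0.0134 and 0.773 ± 0.236 CPM, SD, n = 3). The treated libraries were all higher, by log2 2.58 (SE 0.516, edgeR adjusted p = 0.000160). Pax3 passed the filter on low counts only through these treated libraries, where it was highest, so its test was not independent of the filter. In PDS5AB-NIPBL the counts were 1, 1 and 3 untreated and 7, 5 and 17 treated (log2 2.65, SE 0.673, edgeR adjusted p = 0.00516). Leaving out treated replicate 3, the library with 17 counts, ended this call (log2 2.16, edgeR adjusted p = 0.0630), and Pax3 had no adjusted p in DESeq2 or with the compared groups alone.

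In the other lines Pax3 was at the edge of detection. The WAPL libraries held 1, 0 and 0 counts untreated and 1, 2 and 4 treated, and the WAPL-NIPBL libraries 1, 1 and 0 untreated and 1, 4 and 9 treated. All 3 untreated TIR1 libraries held 0 counts, which allows up to 0.0384 CPM over the group (3 counts), and the treated ones held 1, 4 and 0. No effect on Pax3 in these 3 lines was called, and no fold is given for them. None of the tested differences between lines in the Pax3 effect was called either. The edgeR adjusted p was 0.513 for PDS5AB minus TIR1, 0.619 for PDS5AB-NIPBL minus TIR1 and 0.986 for PDS5AB minus WAPL.

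Zic1 (ENSMUSG00000032368.14, chromosome 9, 91358058 to 91365810, minus strand) is a zinc-finger factor of the neural plate and dorsal neural tube. Its counts in the PDS5AB line were 4, 2 and 20 untreated and 49, 32 and 49 after auxin. All 3 treated libraries were above the untreated ones, and the log2 fold change was 2.48 (SE 0.492, edgeR adjusted p = 0.000123). Without untreated replicate 3, the library with 20 counts, it was 3.83. In PDS5AB-NIPBL the counts were 5, 5 and 11 untreated and 14, 5 and 11 treated (log2 0.74, 95% interval -0.50 to 1.97, edgeR adjusted p = 0.444).

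Zic1 counts were 5, 4 and 3 in untreated and 6, 10 and 3 in treated WAPL libraries. They were 3, 3 and 1 against 2, 5 and 4 in WAPL-NIPBL and 3, 0 and 1 against 1, 10 and 2 in TIR1. None of these effects was called. Nor was the difference between the PDS5AB effect and that of 3 other lines (WAPL-NIPBL was not compared): PDS5AB minus TIR1 was log2 1.42 (SE 1.25, edgeR adjusted p = 0.439), PDS5AB minus WAPL was log2 1.94 (SE 0.897, edgeR adjusted p = 0.167) and PDS5AB-NIPBL minus PDS5AB -1.74 (SE 0.788, edgeR adjusted p = 0.171). Without the untreated PDS5AB library of 20 counts the last 2 differences were log2 3.28 and -3.10 and were called (edgeR adjusted p = 0.0193 and 0.0198). Zic1 shares 60 of its 5693 exon bases with Zic4 on the opposite strand, and counting ignored strand, so fragments that touch both genes were dropped. Zic4 itself held 13 counts in all.

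Hes5 (ENSMUSG00000048001.7, chromosome 4, 154960923 to 154962371, plus strand), the Notch effector whose promoter is shown above, held 0 to 5 counts per library. It was at 0 in 11 of the 30 libraries. The group totals of 3 libraries were 1 and 4 counts in untreated and treated TIR1, 3 and 6 in PDS5AB, 4 and 2 in WAPL, 1 and 4 in PDS5AB-NIPBL and 5 and 3 in WAPL-NIPBL. Hes5 was too low to be tested. In WAPL the untreated libraries, at 0.0309, 0.0705 and 0.0394 CPM, lay above the treated ones, at 0, 0.0293 and 0.0302 CPM, but these are 1 or 2 counts against 0 or 1. In the other 4 lines the groups overlapped, and no group reached 0.1 CPM on average. Of the 1363 exon bases of Hes5, 433 are shared with Gm20421 on the opposite strand, and fragments that touch both genes were dropped, which lowers the Hes5 count.

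Nes (ENSMUSG00000004891.16, chromosome 3, 87971078 to 87980451, plus strand) encodes nestin, the intermediate filament of neural progenitors. In PDS5AB cells it read 50.01, 62.7 and 69.7 CPM untreated and 79.7, 98.3 and 100.4 CPM treated. The treated libraries were all higher (1.53-fold, log2 0.61, SE 0.117, edgeR adjusted p = 7.81e-05). In PDS5AB-NIPBL cells it read 81.9, 63.7 and 58.1 CPM untreated and 125, 105 and 105 CPM treated (log2 0.72, SE 0.117, edgeR adjusted p = 3.63e-05). These groups were also apart, and treated PDS5AB-NIPBL was the highest of the 10 groups, at 112 ± 11.3 CPM (SD, n = 3).

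In WAPL cells Nes read 73.4, 62.8 and 61.4 CPM untreated and 82.8, 86.6 and 71.6 CPM treated, and the groups overlapped. The log2 fold change of 0.29 was not called (SE 0.117, edgeR adjusted p = 0.0599), but it was with DESeq2 (0.0490), with the compared groups alone (0.0365) and with the replicate block (0.000236). In WAPL-NIPBL cells Nes read 88.1, 88.1 and 78.8 CPM untreated and 106, 101 and 95 CPM treated (log2 0.24, edgeR adjusted p = 0.221, and 0.00305 with the block). In TIR1 it read 61.9, 69.1 and 68.9 CPM untreated and 69.2, 58.4 and 61.7 CPM treated (log2 -0.08, 95% interval -0.32 to 0.17, edgeR adjusted p = 0.689). Measured against TIR1, the Nes effect was larger by log2 0.69 in PDS5AB (SE 0.165, edgeR adjusted p = 0.00232) and by 0.80 in PDS5AB-NIPBL (SE 0.165, 0.00182). For WAPL and WAPL-NIPBL the excess was 0.36 (edgeR adjusted p = 0.121) and 0.32 (0.256), and both passed with the block (0.00110 and 0.00572). PDS5AB minus WAPL was log2 0.32 (edgeR adjusted p = 0.214, and 0.00419 with the block).

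Tubb3 (ENSMUSG00000062380.4, chromosome 8, 123411424 to 123422015, plus strand) encodes the neuronal beta-tubulin used to stain neurons. It was the most abundant of the 9 genes, and its count is uncertain: counting dropped fragments that fit several genes, and how many Tubb3 lost to similar tubulin genes was not measured. In TIR1 it read 120.4, 144 and 128 CPM untreated and 93.9, 86.4 and 93.1 CPM after auxin. The treated libraries were all lower (log2 -0.52, SE 0.139, edgeR adjusted p = 0.00779), although the call was lost without untreated replicate 2 (0.0530). In PDS5AB it read 71.6, 63.7 and 62.0 CPM untreated and 58.4, 48.0 and 40.2 CPM treated (log2 -0.43, SE 0.142, edgeR adjusted p = 0.0137), a call lost without untreated replicate 1 (0.0609) or treated replicate 3 (0.105).

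Tubb3 read 72.2, 59.2 and 69.8 CPM in untreated and 79.2, 60.5 and 74.3 CPM in treated WAPL cells (log2 0.09, edgeR adjusted p = 0.689). In PDS5AB-NIPBL it read 101, 92.8 and 114 CPM against 92.6, 106 and 140.4 CPM (log2 0.15, 0.538). In WAPL-NIPBL it read 112, 81.5 and 109 CPM against 90.7, 69.6 and 89.4 CPM (log2 -0.27, 0.262). The treated WAPL-NIPBL library was the lower one in each of the 3 numbered pairs, and this effect was called with the replicate block (log2 -0.27, edgeR adjusted p = 0.00236) and with no filter on low counts (0.0243). The Tubb3 effect was higher than that of TIR1 by log2 0.61 in WAPL (SE 0.197, edgeR adjusted p = 0.0267) and by 0.67 in PDS5AB-NIPBL (SE 0.196, 0.0275). Those calls were lost in 5 and 6 of the fits that left out 1 library, with edgeR adjusted p up to 0.0861 and 0.139. With the block the excess over TIR1 in WAPL-NIPBL (log2 0.25, main edgeR adjusted p = 0.507) was also called, at 0.0471.

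Further differences for Tubb3 were not called in the main analysis but were with the block. WAPL-NIPBL minus WAPL was log2 -0.36 (edgeR adjusted p = 0.370, blocked 0.00678). PDS5AB minus WAPL was log2 -0.52 (edgeR adjusted p = 0.0892, blocked 7.07e-05), and was also called with no filter (0.000255), without treated PDS5AB replicate 1 (0.0207) and without treated WAPL replicate 2 (0.0325). PDS5AB-NIPBL minus PDS5AB was log2 0.57 (edgeR adjusted p = 0.0646, blocked 2.40e-05), and was also called with no filter (5.73e-05), with DESeq2 (0.0407) and in 3 fits that left out 1 library. In that comparison none of the 9 genes was called, where 9.46% of all genes were. At an unadjusted edgeR p under 0.05 there were 3, Tubb3, Map2 and Zic1 (23.5% of all genes), and DESeq2 called 2, Tubb3 and Map2 (15.1% of the genes to which it gave an adjusted p).

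Map2 (ENSMUSG00000015222.17, chromosome 1, 66175273 to 66442583, plus strand) encodes a microtubule-associated protein of dendrites. In PDS5AB it read 3.91, 4.83 and 4.47 CPM untreated and 5.56, 6.08 and 6.79 CPM treated, with no overlap. The log2 fold change was 0.48 (SE 0.194, edgeR adjusted p = 0.0430). Leaving out untreated replicate 1 (0.139) or 3 (0.0797) or treated replicate 2 (0.0752) or 3 (0.156) ended this call. In PDS5AB-NIPBL the values were 4.95, 7.18 and 5.01 CPM against 4.14, 4.95 and 4.58 CPM (log2 -0.32, 95% interval -0.74 to 0.10, edgeR adjusted p = 0.306).

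Map2 was not called in the other 3 lines, at log2 0.26 in WAPL, 0.05 in WAPL-NIPBL and 0.00 in TIR1 (edgeR adjusted p = 0.348, 0.928 and 0.996). The Map2 effects of the 2 lines with PDS5A and PDS5B degrons lay on opposite sides of 0, and PDS5AB-NIPBL minus PDS5AB was log2 -0.80 (SE 0.280, edgeR adjusted p = 0.0679, and 0.00173 with the replicate block). PDS5AB minus TIR1 was 0.48 (0.216, and 0.0369 with the block). Without treated TIR1 replicate 1 that difference was log2 0.75 and was called (edgeR adjusted p = 0.0413). The mean of Map2 varied by 1.63 times between its highest and lowest group, the narrowest range of the 9 genes. By the same measure Nes varied by 1.84 times, Tubb3 by 2.67, Sox1 by 3.65, Sox11 by 6.66 and Pax6 by 9.42.

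**Figure D3:**
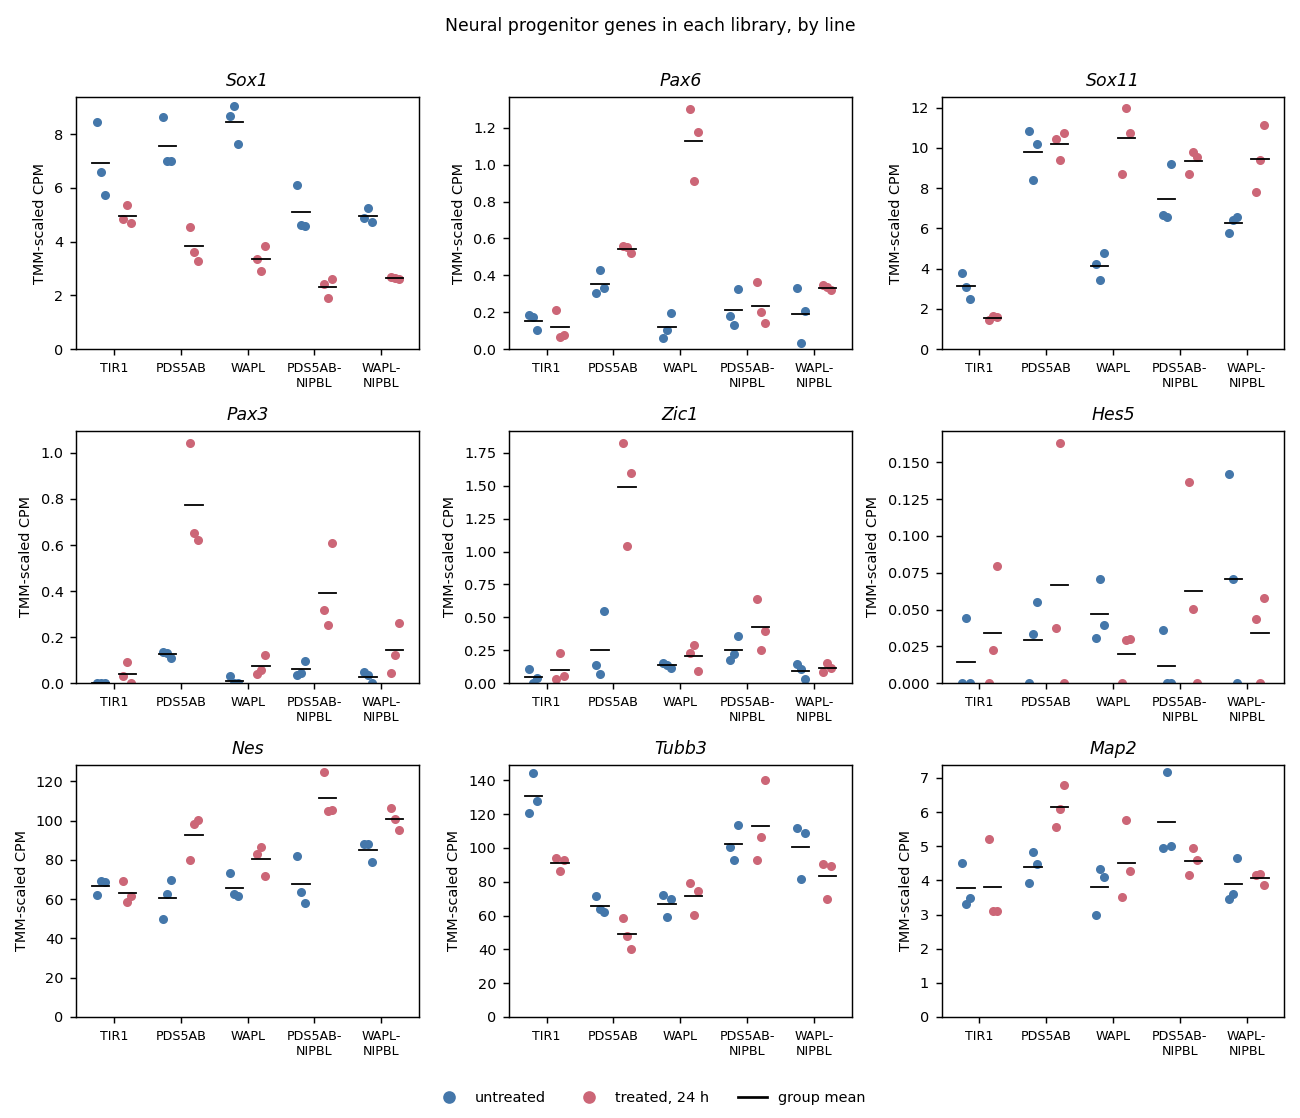
TMM-scaled CPM of the 9 genes in each of the 30 libraries, by line; blue points are untreated and red points treated libraries, and black lines are means of 3. Sox1 is lower after treatment in every line, Pax6 stands out in treated WAPL (0.910 to 1.30 CPM), and Pax3 and Zic1 in treated PDS5AB; each panel has its own scale from 0.

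The untreated lines already differed in these genes. In untreated PDS5AB against untreated TIR1, 4 of the 9 were called, 3 higher and 1 lower (32% of all genes, 15.5% higher and 16.5% lower). Sox11 was higher, at a mean of 9.81 ± 1.26 CPM where TIR1 had 3.13 ± 0.635 (SD, n = 3; log2 1.65, SE 0.165, edgeR adjusted p = 2.79e-09), and Tubb3 lower, at 65.8 ± 5.14 CPM where TIR1 had 131 ± 12.2 (log2 -0.99, SE 0.141, edgeR adjusted p = 1.51e-06). Pax3, with 12 counts against 0, was called higher (edgeR adjusted p = 0.00683), by 3.25-fold if the TIR1 group is set at 3 counts. Zic1 was called higher (log2 2.27, SE 0.831, edgeR adjusted p = 0.0351), but its groups overlapped and the call was lost without untreated PDS5AB replicate 3 (log2 0.92, 0.535) and without TIR1 replicate 2 (0.128) or 3 (0.113). Without TIR1 replicate 1 it was log2 3.48 (edgeR adjusted p = 0.0244). With the 2 groups fitted alone, Sox11 and Tubb3 were the 2 genes called, and Pax3 and Zic1 had no value.

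Tubb3 was the single gene called in untreated WAPL against untreated TIR1 (14% of all genes, 6.62% higher and 7.39% lower), at 67.1 ± 6.90 CPM (SD, n = 3, log2 -0.96, SE 0.141, edgeR adjusted p = 1.64e-05). Without TIR1 replicate 1, Sox1 and Sox11 were called higher as well, at edgeR adjusted p = 0.0457 and 0.0494. In untreated PDS5AB-NIPBL against TIR1, 5 were called, 3 higher and 2 lower (34.3% of all genes, 16.5% higher and 17.8% lower). Sox11 was higher by log2 1.26 (SE 0.169, edgeR adjusted p = 8.48e-07), Map2 by 0.59 (0.0240) and Zic1 by 2.24 (0.0421), while Sox1 was lower by log2 -0.44 (0.0246) and Tubb3 by -0.35 (0.0498). The Zic1 value rests on 3, 0 and 1 counts in untreated TIR1 and ran from log2 1.77 without TIR1 replicate 2 (0.144) to 3.46 without TIR1 replicate 1 (0.0268). All of these but Sox11 were lost in some fit that left out 1 library: 1 of the 5 was kept without PDS5AB-NIPBL replicate 2, 2 without TIR1 replicate 2 or 3, and 3 without TIR1 replicate 1 or PDS5AB-NIPBL replicate 3.

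In untreated WAPL-NIPBL against TIR1, 4 were called, 2 higher and 2 lower (28% of all genes, 13.4% higher and 14.6% lower): Sox11 by log2 1.00 (SE 0.171, edgeR adjusted p = 4.98e-05), Nes by 0.35 (0.0245), Sox1 by -0.49 (0.0175) and Tubb3 by -0.38 (0.0418). Sox11 alone stayed called in every fit that left out 1 library, and the count was 2 without TIR1 replicate 1 or without WAPL-NIPBL replicate 2 or 3. In untreated WAPL-NIPBL against untreated WAPL 4 of the 9 genes were called, 3 higher and 1 lower (10.7% of all genes, 4.99% higher and 5.67% lower). Sox1 was lower, at 4.95 ± 0.275 CPM where WAPL had 8.45 ± 0.724 (SD, n = 3; log2 -0.77, SE 0.151, edgeR adjusted p = 0.000651). Tubb3 was higher by log2 0.59 (SE 0.141, edgeR adjusted p = 0.00502), Sox11 by 0.60 (0.0142) and Nes by 0.37 (0.0395). The Nes call was lost without replicate 1 (0.113) or 2 (0.129) of WAPL-NIPBL or replicate 2 (0.121) or 3 (0.154) of WAPL. The Sox11 call was lost without WAPL-NIPBL replicate 2 (0.0575) or 3 (0.0656) or WAPL replicate 2 (0.103). These 2 lines differ in the NIPBL and RAD21 fusions and in being separate lines, which cannot be told apart.

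Set against the background, the count of differences between effects was uneven. Against the TIR1 effect, 4 of the 9 genes were called in WAPL (20.7% of all genes), 3 in PDS5AB-NIPBL (10.1%), 2 in PDS5AB (26.3%) and 1 in WAPL-NIPBL (7.04%). These comparisons share the TIR1 libraries. WAPL-NIPBL minus WAPL called 1, Sox11 (5.19% of all genes), and PDS5AB minus WAPL called 2, Pax6 and Sox11 (12.5%).

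Wider neural gene lists held changes in both directions. Of 30 other regulators of the neural plate and of progenitors, 25 were tested. In PDS5AB 8 rose and 8 fell (64% called, where 46% of all genes were), in WAPL 7 rose and 9 fell (64%, where 32.8% were), in PDS5AB-NIPBL 4 rose and 5 fell (36%, where 19.5% were), in WAPL-NIPBL 1 rose and 4 fell (20%, where 8.57% were), and in TIR1 3 rose and 4 fell (28%, where 19.9% were). The median log2 fold change of the 25 was 0.11, -0.20, 0.23, 0.03 and -0.05, with the lines in that order here and below, beside 0.04, 0.00, 0.00, 0.01 and -0.01 over all genes. Six3 held 3 counts or fewer in both WAPL-NIPBL groups, and without it that median was 0.06. Otx1, a forebrain homeobox factor, had 0.352 ± 0.131 CPM in untreated and 1.95 ± 0.307 CPM in treated WAPL cells (SD, n = 3; a rise of log2 2.47, SE 0.322, edgeR adjusted p = 5.00e-07), and rose in PDS5AB by log2 0.90 (edgeR adjusted p = 0.000884). Zic2, a close relative of Zic1, had 33.1 ± 5.96 CPM in untreated and 11.8 ± 2.16 CPM in treated PDS5AB-NIPBL cells (a decrease, log2 -1.49, SE 0.17, edgeR adjusted p = 1.50e-07). It also fell in WAPL-NIPBL (log2 -1.02, edgeR adjusted p = 0.000154), PDS5AB (log2 -0.99, edgeR adjusted p = 8.60e-06) and WAPL (log2 -0.70, edgeR adjusted p = 0.00110), so Zic1 and Zic2 moved in opposite directions in the PDS5AB line. Otx2, a homeobox factor of the epiblast and forebrain, fell in all 5 lines, TIR1 included, from log2 -0.98 in PDS5AB to -1.28 in WAPL (edgeR adjusted p = 0.00154 and 5.38e-05).

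Of the 32 genes of the Notch pathway and proneural list, 25 were tested. In PDS5AB 17 rose and 4 fell (68% and 16% of the list, beside 25.8% and 20.2% of all genes). In WAPL 12 rose and 3 fell (48% and 12%, beside 17% and 15.8%), and in PDS5AB-NIPBL 7 rose and 2 fell (28% and 8%, beside 11.4% and 8.06%). In WAPL-NIPBL 2 rose and 2 fell (8% each, beside 5.11% and 3.45%), and in TIR1 3 rose and 3 fell (12% each, beside 10.4% and 9.59%). The medians were log2 0.38, 0.34, 0.25, 0.15 and 0.02. Jag2, a Notch ligand, had 12.4 ± 1.24 CPM in untreated and 31.8 ± 1.73 CPM in treated PDS5AB cells (SD, n = 3; a rise of log2 1.36, SE 0.124, edgeR adjusted p = 4.39e-10), together with Nrarp, a Notch target and feedback inhibitor (log2 1.46, SE 0.237, edgeR adjusted p = 8.31e-06). Its relative Jag1 fell in PDS5AB by log2 -0.51 and Dll3 by -0.73 (edgeR adjusted p = 0.000228 and 0.00105). The ligand gene Dll1 went up in WAPL, 0.630 ± 0.0414 CPM untreated and 2.23 ± 0.311 CPM treated (log2 1.82, SE 0.279, edgeR adjusted p = 6.74e-06), and Hes6, a relative of Hes5 that promotes neuron formation, by log2 1.07 (SE 0.101, edgeR adjusted p = 1.43e-09). The glycosyltransferase gene Lfng fell in WAPL by log2 -1.37 and in PDS5AB-NIPBL by -0.83 (edgeR adjusted p = 0.000119 and 0.0211), and rose in PDS5AB by log2 0.72 (edgeR adjusted p = 0.0108).

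Genes of neuronal differentiation and the neuronal cytoskeleton held calls in both directions in all 4 degron lines. Of 32 genes 29 were tested. In PDS5AB 6 rose and 4 fell (34.5% called, below the 46% of all genes), in WAPL 8 rose and 4 fell (41.4%, where 32.8% of all genes were), in PDS5AB-NIPBL 2 rose and 11 fell (44.8%, where 19.5% were), in WAPL-NIPBL 3 rose and 3 fell (20.7%, where 8.57% were), and in TIR1 none rose and 10 fell (34.5%, where 19.9% were). The medians were log2 -0.08, 0.15, -0.18, -0.05 and -0.32. Sox4, the SoxC partner of Sox11, rose in all 4 degron lines, by log2 1.43 in WAPL, 1.30 in PDS5AB, 0.81 in WAPL-NIPBL and 0.61 in PDS5AB-NIPBL (edgeR adjusted p = 1.29e-09, 2.46e-09, 6.93e-05 and 0.00165). Nefm, a neurofilament subunit, fell in PDS5AB-NIPBL (log2 -1.08, edgeR adjusted p = 0.000266) and WAPL-NIPBL (log2 -0.85, edgeR adjusted p = 0.00388). Crmp1, an axon guidance mediator, fell in TIR1 by log2 -1.15 and in PDS5AB-NIPBL by -0.67, and rose in WAPL by 1.02 (edgeR adjusted p = 0.000248, 0.0151 and 0.000224).

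Of 20 genes of the neural plate border and neural crest, where Pax3 and Zic1 also act, 18 were tested. In PDS5AB 8 rose and 1 fell (50% called, near the 46% of all genes), in WAPL 6 rose and 5 fell (61.1%, where 32.8% of all genes were), in PDS5AB-NIPBL 5 rose and 1 fell (33.3%, where 19.5% were), in WAPL-NIPBL 3 rose and 1 fell (22.2%, where 8.57% were), and in TIR1 1 rose and 2 fell (16.7%, where 19.9% were). The medians were log2 0.93, 0.66, 0.52, 0.49 and 0.06. Dlx5 held 3 counts or fewer in both groups of WAPL-NIPBL and of TIR1, and without it these last medians were 0.41 and 0.02. Dlx3, a border homeobox gene, had 3.41 ± 0.385 CPM in untreated and 13.1 ± 2.48 CPM in treated PDS5AB cells (SD, n = 3; a rise of log2 1.95, SE 0.221, edgeR adjusted p = 2.32e-08). Lmx1b rose in all 4 degron lines, by log2 1.68, 1.18, 1.37 and 1.35 in PDS5AB, WAPL, PDS5AB-NIPBL and WAPL-NIPBL (edgeR adjusted p = 6.13e-08, 0.000140, 0.000107 and 0.000121). Foxd3, a crest specifier that stem cells also express, fell in all 5 lines, from log2 -0.47 in TIR1 to -2.13 in PDS5AB (edgeR adjusted p = 0.00702 and 4.54e-13).

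The REST complex, which silences neuronal genes outside neurons, had all 16 of its genes tested. In PDS5AB 3 rose and 7 fell (62.5% called, where 46% of all genes were), in WAPL 1 rose and 6 fell (43.8%, where 32.8% were), in PDS5AB-NIPBL 3 fell (18.8%, near the 19.5% of all genes), in WAPL-NIPBL 1 rose and 3 fell (25%, where 8.57% were), and in TIR1 3 rose and 2 fell (31.2%, where 19.9% were). The medians were log2 -0.16, -0.09, -0.08, -0.05 and 0.02. Rest itself had 379 ± 24.2 CPM in untreated and 238 ± 17.8 CPM in treated PDS5AB cells (SD, n = 3; a decrease, log2 -0.67, SE 0.0819, edgeR adjusted p = 7.87e-08). Ctdspl and Rcor1 rose in PDS5AB, by log2 0.64 and 0.25 (edgeR adjusted p = 0.000848 and 0.0229). Rcor2, the corepressor of REST in stem cells and neural progenitors, fell in all 5 lines, from log2 -0.41 in PDS5AB-NIPBL to -0.82 in PDS5AB (edgeR adjusted p = 0.000117 and 3.44e-10).

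**Figure D4:**
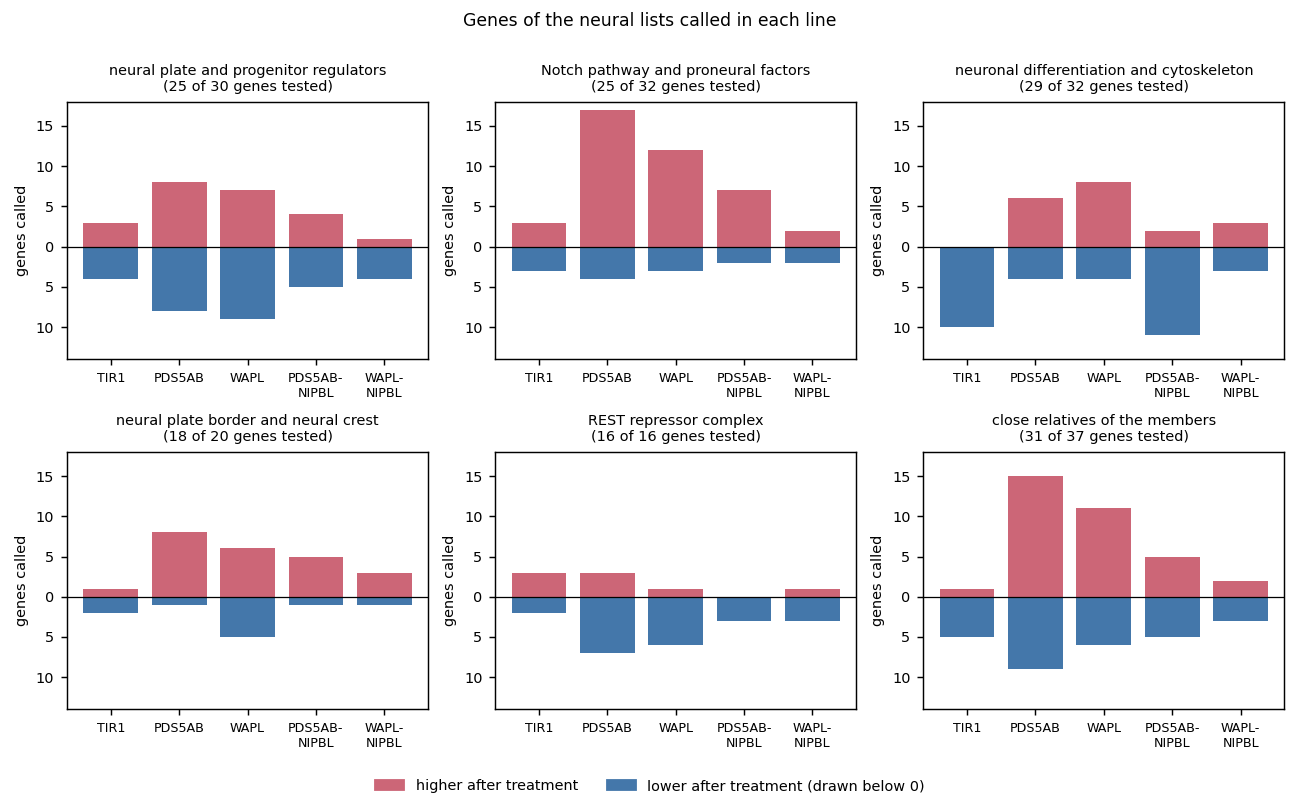
Number of genes of each of 6 neural lists called higher (red, above 0) and lower (blue, below 0) after treatment in each line. The Notch and proneural list has 17 genes higher and 4 lower in PDS5AB, while the neuronal list has 10 lower and 0 higher in TIR1.

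Relatives of the 9 genes in the same families were also counted. Of 37 relatives 31 were tested. In PDS5AB 15 rose and 9 fell (77.4% called, where 46% of all genes were), in WAPL 11 rose and 6 fell (54.8%, where 32.8% were), in PDS5AB-NIPBL 5 rose and 5 fell (32.3%, where 19.5% were), in WAPL-NIPBL 2 rose and 3 fell (16.1%, where 8.57% were), and in TIR1 1 rose and 5 fell (19.4%, near the 19.9% of all genes). The medians were log2 0.34, 0.14, 0.02, 0.00 and -0.12. Sox2, the SoxB1 relative of Sox1 and a pluripotency factor, had 337 ± 22.6 CPM in untreated and 138 ± 15.1 CPM in treated PDS5AB cells (SD, n = 3; a decrease, log2 -1.29, SE 0.0791, edgeR adjusted p = 1.49e-13). In WAPL cells the means were 448 ± 16.9 and 220.5 ± 17.3 CPM (log2 -1.02, SE 0.0783, edgeR adjusted p = 2.15e-11), and Sox2 fell in both NIPBL lines too (log2 -0.48 with PDS5AB and -0.37 with WAPL degrons, edgeR adjusted p = 3.34e-05 and 0.00196). Synm, an intermediate filament gene like Nes, rose in PDS5AB (log2 1.11, edgeR adjusted p = 7.35e-08) and PDS5AB-NIPBL (log2 0.63, 0.00238), the lines in which Nes was called.

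Markers of other cell types were read beside these genes. Of 8 endoderm genes, 4 rose and 1 fell in PDS5AB (62.5% called, where 46% of all genes were), 5 rose and 1 fell in WAPL (75%, where 32.8% were), 3 rose in PDS5AB-NIPBL (37.5%, where 19.5% were), 3 rose in WAPL-NIPBL (37.5%, where 8.57% were) and 2 rose in TIR1 (25%, where 19.9% were). Summed over the list, the endoderm level per library was lower after treatment in WAPL (231.5 to 275 CPM untreated, 192 to 211 CPM treated), where 5 of the 8 genes rose. Sums here and below add CPM without weighting, so the most abundant genes carry them, and they do not count genes that moved. The endoderm sum was higher in TIR1 (161 to 171 and 206 to 215 CPM) and in PDS5AB-NIPBL (239 to 281 and 284 to 297 CPM), and overlapped in PDS5AB (136 to 147 and 138 to 167 CPM) and WAPL-NIPBL (234 to 274 and 245 to 255 CPM).

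The summed trophoblast level was higher after treatment in PDS5AB (67.0 to 77.3 CPM untreated, 99.5 to 127 CPM treated) and also with auxin alone in TIR1 (91.3 to 98.4 and 142 to 147 CPM). It was lower in WAPL (82.4 to 99.3 and 35.3 to 40.1 CPM) and WAPL-NIPBL (71.8 to 80.7 and 49.2 to 54.1 CPM), and overlapped in PDS5AB-NIPBL (66.2 to 74.8 and 58.1 to 67.3 CPM). The fibroblast sum was lower after treatment in WAPL (13.5 to 14.1 and 4.35 to 5.21 CPM), WAPL-NIPBL (10.3 to 12.4 and 7.43 to 8.13 CPM) and TIR1 (13.96 to 17.6 and 10.2 to 13.2 CPM). In PDS5AB it was higher (16.9 to 18.95 and 19.4 to 21.8 CPM), and in PDS5AB-NIPBL it overlapped (8.14 to 11.01 and 9.75 to 10.7 CPM). The 6 mesoderm genes summed to more after treatment in WAPL (9.87 to 13.2 and 15.7 to 18.7 CPM) and WAPL-NIPBL (14.7 to 17.4 and 18.99 to 23.8 CPM), and their sums overlapped in the other 3 lines.

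The 5 glial genes summed to more after treatment in TIR1 (8.27 to 8.89 and 11.4 to 11.6 CPM), WAPL (10.3 to 11.04 and 11.4 to 13 CPM) and WAPL-NIPBL (9.997 to 10.5 and 11.8 to 12.6 CPM), and overlapped in both lines with PDS5A and PDS5B degrons. Aqp4, a water channel of astrocytes, was at 0 in 7 of the 10 groups. The 5 formative epiblast genes summed to less in treated TIR1 (199.6 to 221 and 166 to 173 CPM), where Sox1, Tubb3 and Sox11 fell, and overlapped in the 4 degron lines. The pluripotency sum was lower after treatment in PDS5AB (5604 to 5836 and 3522 to 3711 CPM), WAPL (5863 to 5987 and 4432 to 4543 CPM), PDS5AB-NIPBL (6156 to 6479 and 5037 to 5392 CPM) and WAPL-NIPBL (5889 to 6036 and 4852 to 4991 CPM), and overlapped in TIR1 (5803 to 6030 and 5845 to 6180 CPM). Where a sum moved in a line, its part in the changes of the neural genes there was not tested.

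Over the 30 libraries, the genes most like Sox1 in log2 CPM, among genes that average 50 counts or more, were Lrrn4 (Pearson's r 0.927) and Dcbld1 (0.893). Those most like Sox11 were Cgn (0.908) and Foxp1 (0.902), and most like Pax6 were Eno3 (0.851) and Plcxd1 (0.844). Plpbp was in the first pair for both Pax3 (0.904) and Zic1 (0.865), with Igfbp5 (0.896) and Zfp456 (0.869). For Nes the first pair was Fzd8 (0.884) and Nol3 (0.865), for Tubb3 Fblim1 (0.855) and Tfeb (0.80), and for Map2 Tgfa (0.791) and Arhgap29 (0.772). Among the neural genes themselves, r was highest for Pax3 and Zic1 (0.809), 0.634 for Pax6 and Sox11, and -0.802 for Sox1 and Nes. These correlations describe 30 libraries in 10 groups that share lines and treatments, and are given without a test.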

How the data were processed

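Polyadenylated RNA of 30 libraries was analysed. The molecule field of the labels reads genomic DNA, although the labels' protocols describe stranded mRNA libraries. The authors deposited 1 table of raw counts of fragments per gene, made with featureCounts 2.0.1 on GENCODE vM23 gene models, per the file headers. The recorded command sets no strand option, so strand was ignored, and fragments that fit several genes or places were dropped, which lowers genes with overlaps or near-identical copies. Reads were aligned with STAR 2.7.7a to GRCm38.p6, per the submitters' processing notes. Symbols were matched for 55154 of 55421 identifiers (99.5%).

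The counts were tested with edgeR 4.0.16 (R 4.3.3; quasi-likelihood F-test, TMM factors from 0.950 to 1.13, filterByExpr with a minimum count of 10, Benjamini-Hochberg adjustment over 19868 genes, called at an adjusted p under 0.05). The fit held 1 mean for each of 10 groups over all 30 libraries, with 20 residual degrees of freedom. CPM and FPKM were computed from counts and TMM-scaled sizes. Standard errors and 95% intervals come from the F statistic. A fold against a group at 0 sets that group at 3 counts in all. This allows for the counting error of the group at 0 and for no other error. Scripts were tested on simulated data.

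Same-numbered untreated and treated libraries deviated together in the PDS5AB, WAPL, PDS5AB-NIPBL and WAPL-NIPBL lines (correlation of deviations 0.109 to 0.333), and not in TIR1 (-0.0102 to 0.0574). The labels do not state that these libraries were paired. A blocked fit was run for treatment effects and their differences, with a term for replicate number within each line, TIR1 included. For untreated comparisons the term was replicate number across lines. Calls gained with the block assume a pairing that is not recorded. Blocked values stand beside results whose call the block changed. The other alternatives were RLE size factors, no filter on low counts, the compared groups alone, DESeq2 1.42.0 and leaving out each library.

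All 9 genes are described. From each list and treatment effect up to 2 called genes per direction with a mean of at least 50 counts could be named, by size of change, and for each tested gene the 2 most correlated genes. The genes, lists and tests were chosen with earlier results of these data known.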

Additional observations from a re-analysis of the deposited data

Results flagged for a closer look

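The 13 results below are differences between the treatment effects of 2 lines that passed the test of the difference itself (edgeR, log2 scale). Sox11 accounted for 6 of them. Its effect was higher than that of TIR1 by 2.33 in WAPL, 1.58 in WAPL-NIPBL, 1.30 in PDS5AB-NIPBL and 1.04 in PDS5AB. It was lower in WAPL-NIPBL than in WAPL by -0.75 and lower in PDS5AB than in WAPL by -1.29.

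The Pax6 effect was higher in WAPL than in TIR1 by 3.63, and PDS5AB minus WAPL was -2.60. Sox1 fell further in WAPL than in TIR1, by -0.85. The Nes effect exceeded that of TIR1 by 0.69 in PDS5AB and by 0.80 in PDS5AB-NIPBL. The Tubb3 effect exceeded that of TIR1 by 0.61 in WAPL and by 0.67 in PDS5AB-NIPBL. In all 10 differences from TIR1, untreated TIR1 libraries carry lower and treated ones higher library numbers. What the numbers stand for is not given, and a batch, if they mark one, cannot be told apart from the auxin effect. Differences that involve a line with the NIPBL fusion also hold any effect of dTAG-13 itself.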

How the results depend on the processing

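Across 48 calls of a gene in a comparison, 29 were kept under every alternative that gave a value, and no direction was reversed. Leaving out 1 library ended 19 calls, the replicate block ended none and added 16 (each given above), and it changed no other call. Counts of genes called, of 9, differed by more than 1.5 times as follows. With the replicate block the count rose from 2 to 4 for the WAPL-NIPBL effect, from 2 to 4 for PDS5AB minus TIR1, from 1 to 3 for WAPL-NIPBL minus TIR1, from 0 to 2 for PDS5AB-NIPBL minus PDS5AB, from 1 to 3 for WAPL-NIPBL minus WAPL and from 2 to 4 for PDS5AB minus WAPL. With the compared groups alone it was 2 instead of 4 for untreated PDS5AB, 3 instead of 5 for untreated PDS5AB-NIPBL, 2 instead of 1 for WAPL-NIPBL minus TIR1, 1 instead of 0 for PDS5AB-NIPBL minus PDS5AB and 0 instead of 1 for WAPL-NIPBL minus WAPL. In these fits Pax3 and Zic1 had no value for untreated PDS5AB, and Zic1 had none for untreated PDS5AB-NIPBL. PDS5AB-NIPBL minus PDS5AB gave 2 without the filter and 2 with DESeq2. PDS5AB minus WAPL gave 1 with DESeq2, in which Pax6 had no adjusted p.

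Leaving out 1 library gave 1 to 2 for the WAPL-NIPBL effect, 1 to 3 for untreated WAPL, 1 to 4 for untreated PDS5AB-NIPBL, 2 to 3 for untreated WAPL-NIPBL against TIR1 and 2 to 4 against WAPL. It gave 0 to 1 for PDS5AB-NIPBL minus PDS5AB and 0 to 2 for WAPL-NIPBL minus WAPL. The causes were not tested.

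Over all genes the block raised the number called from 3874 to 6377 in PDS5AB-NIPBL and from 1702 to 4152 in WAPL-NIPBL. In TIR1, where same-numbered libraries did not deviate together, the number rose from 3962 to 7065. For differences it rose from 5224 to 7983 (PDS5AB minus TIR1), 4122 to 7034 (WAPL minus TIR1), 2005 to 4996 (PDS5AB-NIPBL minus TIR1), 1398 to 4436 (WAPL-NIPBL minus TIR1), 1879 to 4846 (PDS5AB-NIPBL minus PDS5AB), 1032 to 3070 (WAPL-NIPBL minus WAPL) and 2481 to 5423 (PDS5AB minus WAPL). With the compared groups alone WAPL-NIPBL minus TIR1 gave 2122, and untreated WAPL against TIR1 fell from 2785 to 1621 without TIR1 replicate 2 and 1599 without WAPL replicate 2. Depth limits Hes5, Pax3, Zic1 and Pax6, whose libraries hold few counts.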
